A study of Arabidopsis thaliana with 72 samples.

Results

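The response of wild-type Arabidopsis leaves to estradiol was examined 24 h after it was painted on. The 6 libraries were chosen by their labels, as Col-0 leaves collected at 24 h after estradiol (3 libraries) or after DMSO, the solvent used as the mock treatment (3 libraries). They are 6 of the 72 RNA-seq libraries in the series. Col-0 is the wild-type accession and carries no inducible construct. The remaining libraries cover Col-0 at 12, 48 and 72 h and a pair of estradiol-inducible lines, LexA::icals3m and LexA::PD-Plug, whose constructs close plasmodesmata, the channels between neighbouring plant cells. Per the labels' protocols, the solutions held 20 µM β-estradiol 17-acetate or 0.1% DMSO, each with 0.01% Silwet L-77, a wetting agent, and were brushed onto both faces of the leaf. Plants were 5 weeks old, grown on sucrose medium in dishes under 10 h of light at 22 °C, and each sample was made of 2 leaves from 4 plants. The sources used here do not say whether the estradiol solution also held DMSO, so an effect of estradiol and an effect of the absence of DMSO cannot be told apart. In such bulk samples, fewer cells of a type and less RNA per cell cannot be told apart either.

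Plants have no steroid receptor of the animal estrogen kind, and estradiol serves in plant biology as the chemical switch of receptor-based gene induction systems. Leaf cells treat many foreign small molecules in successive steps, in which cytochrome P450 enzymes oxidise them, sulfotransferases, UDP-glycosyltransferases (UGTs) and glutathione transferases attach a polar group, and ABC transporters move the products. Some of these genes are also known to respond to disturbed mitochondria, through NAC factors that bind a promoter element called the mitochondrial dysfunction motif.

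At 24 h, estradiol-treated wild-type leaves held less RNA of several genes for detoxification, mitochondrial upkeep, glycolysis and fermentation, and nitrate reduction than leaves painted with DMSO. Of 21241 genes tested, 181 were lower with estradiol and 28 were higher at an adjusted p under 0.05 (edgeR quasi-likelihood test, Benjamini-Hochberg adjusted). These 209 genes are 0.984% of those tested, the lower ones 0.852% and the higher ones 0.132%. Lower genes had a median log2 fold change of -0.94, higher genes one of 0.45, and all genes tested one of 0.01. A change of at least 2-fold was seen in 84 of the lower and 5 of the higher genes. The 3 estradiol libraries were all below the 3 DMSO libraries in 179 of the 181 lower genes, where 8.93% of all genes show that order. They were all above in 26 of the 28 higher genes, where 9.14% of all genes do. The genes were called from these same libraries, so this order follows largely from the choice of genes.

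The number of genes called depended on single libraries. Without estradiol replicate 3, 43 genes passed the threshold and 40 of them were among the 209. Without DMSO replicate 1, 53 passed and 50 were shared. Without estradiol replicate 1, 80 passed and 71 were shared, and without DMSO replicate 2, 118 passed and 106 were shared. Estradiol replicate 3 was the lowest of the 6 libraries in 116 of the 181 lower genes, and DMSO replicate 1 was the highest in 112. Of the 37 called genes named by rule, 4 kept the call without estradiol replicate 3, 8 without DMSO replicate 1, 12 without estradiol replicate 1, 20 without DMSO replicate 2, 24 without estradiol replicate 2 and 26 without DMSO replicate 3, with no change of direction. A fit of the 6 libraries alone called 440 genes, of which 147 were among the 209.

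**Figure D1:**
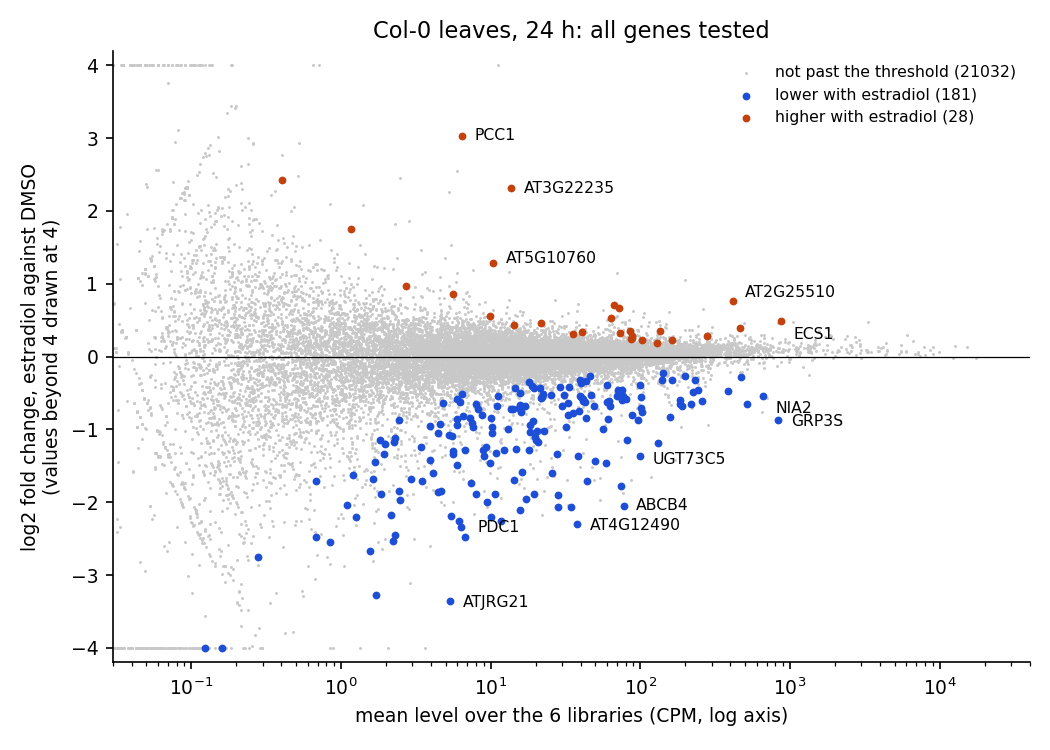
Log2 fold change of estradiol over DMSO in Col-0 at 24 h (vertical axis) against the mean level in CPM over the 6 libraries (horizontal log axis) for every gene tested. Blue points are the 181 lower genes and orange points the 28 higher genes, and most of the larger changes lie below 0.

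Libraries held 37766808 to 52289492 counts, and levels are given in CPM, counts scaled to a common library total. CPM is not divided by gene length, so it orders libraries for a gene and not genes against each other. Replicates of a group correlated at 0.972 to 0.977 over genes, on the log2 CPM scale. Summed markers of leaf mesophyll stood at 32586 to 34466 CPM with DMSO and at 35860 to 37010 CPM with estradiol, and all 4 were present. Guard cell and myrosin cell markers summed to 579 to 669 CPM with DMSO and to 757 to 796 CPM with estradiol, mostly from TGG1, a myrosinase (log2 fold change 0.29), while KAT1, FAMA and MYB60 had -0.16, -0.04 and 0.04. Vascular markers summed to 279.6 to 318 CPM against 318 to 352 CPM, mostly from the sucrose carrier SUC2 (0.20), while APL had -0.11 and SULTR2 -0.37. Sums of epidermis markers (38.6 to 48.1 against 43.8 to 49.4 CPM) and of markers of dividing cells (2.74 to 3.46 against 2.23 to 3.24 CPM) overlapped between treatments. The epidermis sum came mostly from ATML1 (0.14), while GL2 had -0.05. PDF1 had -2.25 (edgeR unadjusted p = 0.0730), at low means of 0.835 CPM with DMSO and 0.171 CPM with estradiol. For root markers 2 of 3 were at 0, for flower markers 2 of 4, and all 3 shoot meristem markers were at 0. No gene of these marker lists passed the threshold, and the part of cell composition in the results below was not tested.

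Genes of enzymes that modify foreign molecules held the most calls of the 22 gene lists. Families counted by symbol here and below were chosen after values were seen. Of 36 genes tested on a list of steroid and xenobiotic detoxification, 8 fell, 0 rose, and 33 had a negative log2 fold change, with a median of -1.17. A negative value was seen in 10002 of all 21241 genes tested, and 0.852% of all genes were called lower and 0.132% higher. These are the backgrounds for such counts in the lists and families here and below. At an unadjusted p under 0.05 edgeR placed 24 of the 36 lower and 0 higher, and DESeq2 called 14 lower and 0 higher. Of all 21241 genes tested, 1503 were lower and 1083 higher at that unadjusted p, and DESeq2 called 295 lower and 61 higher. SOT12, a sulfotransferase that acts on steroids, stood at 34.1, 39.2 and 20.9 CPM in estradiol replicates 1, 2 and 3 and at 101, 75.0 and 83.9 CPM in the DMSO replicates. Its log2 fold change was -1.46 (SE 0.33, edgeR adjusted p = 0.0130). Every estradiol library was below every DMSO library, and estradiol replicate 3 was the lowest.

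UGT73C5, which glucosylates brassinosteroids and fungal toxins, had 58.6, 68.0 and 42.0 CPM with estradiol against 168, 139 and 127 CPM with DMSO. Its log2 fold change was -1.36 (edgeR adjusted p = 0.00423, SE 0.27). UGT73C6, its neighbour on chromosome 2 and also active on brassinosteroids, had 16.6, 18.9 and 12.0 CPM against 47.8, 31.7 and 40.4 CPM, with a log2 fold change of -1.33 (SE 0.29, edgeR adjusted p = 0.00948). In both genes the groups were well apart and estradiol replicate 3 was again the lowest. Of 13 UGT73 genes tested, 6 fell and 11 had a negative value, and the other called members were UGT73B1, UGT73B2, UGT73B4 and UGT73B5. UGT73B4 and UGT73B5 lie in overlapping gene models on chromosome 2, so their counts may share reads. UGT74E2, a glucosyltransferase of the auxin indole-3-butyric acid chosen after its values were seen, went from 135, 101 and 108 CPM with DMSO to 36.5, 39.5 and 23.8 CPM with estradiol. UGT73B4, UGT73B5 and UGT74E2 kept their calls in 0 of the 6 fits that left out 1 library. They kept them in 3, 3 and 2 of the 7 other settings. UGT73C5, UGT73C6, UGT73B1 and UGT73B2 kept theirs in 5, 4, 5 and 2 of the 6 fits.

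Glutathione transferases of the tau class join glutathione to reactive molecules, and 2 of 25 tested passed. GSTU9 stood at 7.13, 6.86 and 3.78 CPM with estradiol and at 27.5, 29.0 and 20.3 CPM with DMSO, a log2 fold change of -2.11 (SE 0.50, edgeR adjusted p = 0.0215). GSTU25 stood at 3.91, 5.54 and 2.62 CPM against 25.0, 14.8 and 18.8 CPM (-2.26, SE 0.60, edgeR adjusted p = 0.0437). Neither gene overlapped between treatments. GSTU9 kept its call in 1 and GSTU25 in 0 of the 6 fits that left out 1 library. Among cytochrome P450 genes, CYP81D8 had 14.1, 16.4 and 5.30 CPM with estradiol against 45.1, 42.4 and 47.0 CPM with DMSO. Its estradiol libraries were spread over a wider relative range than its DMSO libraries, and CYP81D11 was the other called member of the 5 CYP81D genes tested. CYP81D8 kept its call in 1 and CYP81D11 in 2 of the 6 fits that left out 1 library.

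Transporter genes of the ABCB type, which move auxins and other organic molecules across the plasma membrane, held 3 lower genes among 21 tested. ABCB11 stood at 4.81, 4.14 and 1.81 CPM with estradiol and at 16.8, 16.6 and 16.7 CPM with DMSO, a log2 fold change of -2.21 (SE 0.51, edgeR adjusted p = 0.0162). Its DMSO libraries were almost level, and all 3 estradiol libraries lay far below them. The absence of overlap was a condition for naming it by size. ABCB4 went from 150.1, 112 and 114 CPM with DMSO to 33.7, 43.2 and 13.4 CPM with estradiol, and ABCB21 had a log2 fold change of -1.09. The median of all 21 ABCB genes was 0.08. ABCG34 was the 1 called gene among 31 of the ABCG type.

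**Figure D2:**
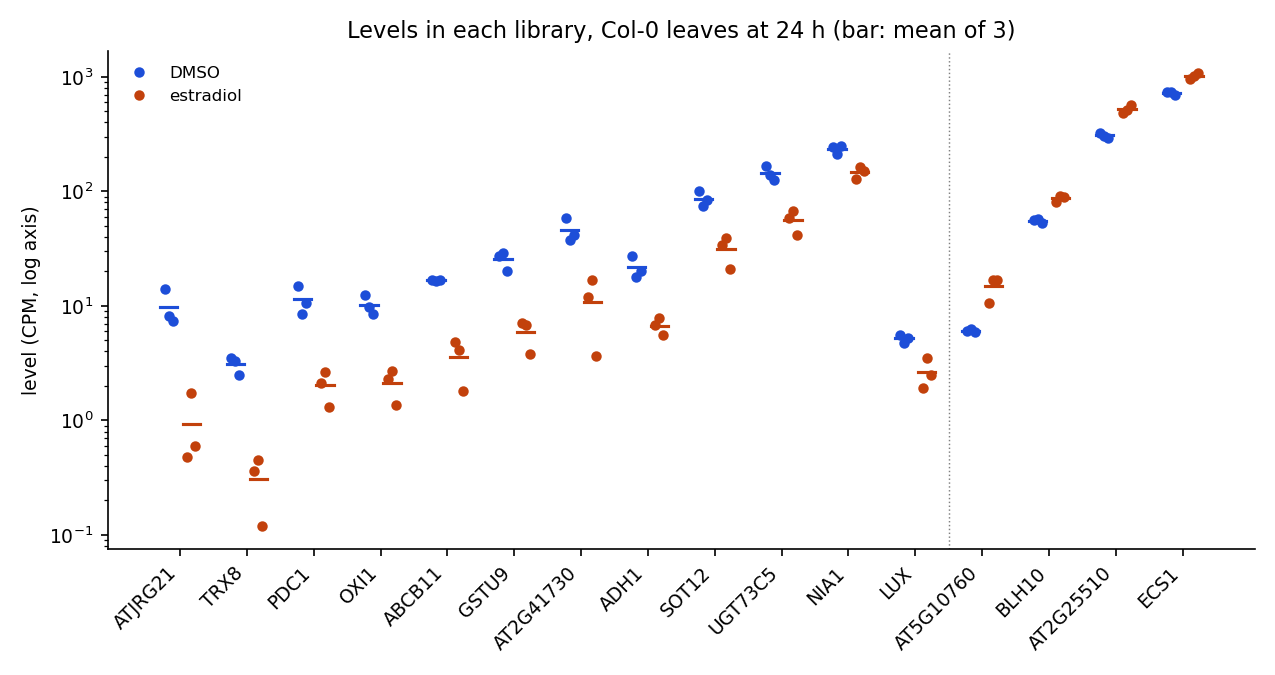
Level in CPM (log axis) of 16 genes in each of the 6 Col-0 24 h libraries, with 1 point per library and a bar at the group mean. Blue and orange groups do not overlap in genes such as SOT12 and ABCB11.

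Several of the lower genes answer to disturbed mitochondria, in a list put together after values were seen. Of its 22 genes tested, 3 fell and 17 had a negative value, with a median log2 fold change of -0.67. AT2G21640, a widely used reporter of mitochondrial and oxidative stress, had 24.2, 25.2 and 12.4 CPM with estradiol against 87.1, 54.2 and 60.5 CPM with DMSO. BCS1 (AT3G50930), an outer mitochondrial membrane ATPase, had 4.93, 5.73 and 4.4 CPM against 13.9, 13.4 and 11.7 CPM, and AT5G54100, a stomatin-like protein of mitochondria, 26.8, 33.3 and 20.5 CPM against 83.4, 62.8 and 72.4 CPM. In all of these genes every estradiol library was below every DMSO library. AOX1A, the alternative oxidase, had a mean of 125 CPM with estradiol and 198 CPM with DMSO and did not pass the threshold.

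Proteins that maintain mitochondria were also encoded by lower genes outside that list, and these were chosen after their values were seen. AT5G55200, a nucleotide exchange factor of the mitochondrial Hsp70, had 14.7, 12.1 and 11 CPM against 32.0, 26.3 and 25.3 CPM (log2 fold change -1.15, edgeR adjusted p = 0.00232). AT3G59820, a LETM1-like protein of the inner membrane, had 32.0, 31.7 and 29.1 CPM against 62.5, 53.5 and 51.1 CPM (-0.85, edgeR adjusted p = 0.000160). ELM1, needed for mitochondrial division, had 22.1, 20.2 and 19.9 CPM against 31.1, 31.3 and 27.5 CPM (-0.53, edgeR adjusted p = 0.00234). These 3 genes were among the 16 that stayed past the threshold whichever library was left out and under each of the 7 other settings. AT2G41730, named by size, had 12.0, 16.7 and 3.63 CPM against 58.2, 37.5 and 41.8 CPM. ATP1, a mitochondrially encoded ATP synthase subunit, fell too (-1.49), but copies of mitochondrial DNA in the nuclear genome could share its reads.

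Promoter sequences of the lower genes were searched, after values were seen, because AT2G21640 is a known target of factors that bind the mitochondrial dysfunction motif. In the 500 bases before the gene start, CTTG followed after any 5 bases by CAAG or CACG was present on either strand in 19 of 180 lower genes (10.6%), in 2 of 28 higher genes (7.14%) and in 400 of 20987 genes tested (1.91%). A match is a description of the letters and not a bound site. The shorter TTGAC, core of the W-box bound by WRKY factors, was in 78.9% of lower, 60.7% of higher and 67% of all promoters. TGACG was in 38.3%, 32.1% and 33.1%, and CACGTG, the G-box, in 13.9%, 10.7% and 10.3%. Stretches around the match are shown for 6 lower genes of different roles, read on the gene's strand from the RefSeq TAIR10.1 genome, with the match in capitals. For AT5G54100 the capitals are the other-strand form of the CACG variant.
ABCB11, chr1:523409-523501, plus strand, a transporter: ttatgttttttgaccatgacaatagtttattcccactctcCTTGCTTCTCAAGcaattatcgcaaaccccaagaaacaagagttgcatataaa
CYP81D8, chr4:17571831-17571923, minus strand, a cytochrome P450: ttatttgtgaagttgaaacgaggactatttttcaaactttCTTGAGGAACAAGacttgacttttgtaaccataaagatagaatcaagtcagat
UGT73C6, chr2:15421871-15421963, minus strand, a glucosyltransferase: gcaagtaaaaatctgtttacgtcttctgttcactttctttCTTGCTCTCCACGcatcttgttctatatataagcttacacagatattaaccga
AT2G21640, chr2:9254287-9254377, plus strand, the stress reporter: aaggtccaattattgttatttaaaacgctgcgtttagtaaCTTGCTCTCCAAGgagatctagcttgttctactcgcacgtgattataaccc
AT5G54100, chr5:21956645-21956737, minus strand, the stomatin-like protein: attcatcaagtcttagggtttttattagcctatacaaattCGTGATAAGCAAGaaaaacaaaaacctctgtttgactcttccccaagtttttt
ADH1, chr1:28974996-28975088, plus strand, alcohol dehydrogenase: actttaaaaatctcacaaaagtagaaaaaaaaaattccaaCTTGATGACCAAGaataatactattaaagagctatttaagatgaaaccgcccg

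Sugar breakdown without oxygen was represented among the lower genes. Pyruvate decarboxylase and alcohol dehydrogenase turn pyruvate into ethanol when oxygen is short. PDC1 stood at 2.11, 2.67 and 1.31 CPM with estradiol and at 15, 8.47 and 10.7 CPM with DMSO, a log2 fold change of -2.47 (SE 0.55, edgeR adjusted p = 0.0129). ADH1 stood at 6.83, 7.79 and 5.56 CPM against 27.2, 17.8 and 20.3 CPM (-1.69, SE 0.36, edgeR adjusted p = 0.00793). Both genes were lower in every estradiol library, as was required for PDC1, which was named by size. They were the 2 called genes of 12 on a list of low-oxygen genes, whose median was -0.10. On a list of glycolysis and fermentation put together after values were seen, 9 of 35 genes fell, 28 had a negative value, and the median was -0.21. The other called members were PDC2, the enolase ENO2, the phosphofructokinase PFK3, the fructose-bisphosphate aldolase AT2G36460, the phosphoglycerate mutase AT3G08590, the pyruvate kinase AT5G56350 and the alanine aminotransferase ALAAT2. AT2G36460 had 147, 152 and 132 CPM with estradiol against 240.0, 214 and 223 CPM with DMSO (-0.65, edgeR adjusted p = 2.48e-05).

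Nitrogen assimilation starts with nitrate reductase, and both of its genes fell. NIA1 stood at 127, 162 and 151 CPM with estradiol and at 242, 214 and 249 CPM with DMSO, a log2 fold change of -0.68 (SE 0.17, edgeR adjusted p = 0.0273). NIA2 stood at 548, 594 and 473 CPM against 849, 704 and 808 CPM (-0.55, SE 0.15, edgeR adjusted p = 0.0473). The treatments did not overlap in either gene. They were 2 of 5 tested genes of nitrogen assimilation, whose median was -0.08. NIA1 lost its call in 4 of the 6 fits that left out 1 library. NIA2 lost its call in 5 of those fits, with RLE size factors, with no filter on low counts and in the other deposited matrix. Chosen after their values were seen, the asparagine synthetase ASN2 (-0.59), the glutamate dehydrogenase GDH2 (-1.36), the glutamate decarboxylase GAD1 (-1.73) and the aspartate aminotransferase ASP2 (-0.86) were also lower.

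The largest falls were in genes of varied roles. ATJRG21, a jasmonate-induced oxygenase that inactivates jasmonate, had 0.481, 1.72 and 0.595 CPM with estradiol against 13.9, 8.24 and 7.37 CPM with DMSO (-3.36, SE 0.80, edgeR adjusted p = 0.0214). TRX8, a thioredoxin, had 0.361, 0.453 and 0.119 CPM against 3.49, 3.33 and 2.47 CPM (-3.28, SE 0.79, edgeR adjusted p = 0.0216). Its estradiol replicate 3 lay near the level of 3 counts in that library, 0.0769 CPM before TMM scaling, so the size of its fall is uncertain. OXI1, a kinase activated by hydrogen peroxide, had 2.29, 2.72 and 1.37 CPM against 12.4, 9.86 and 8.48 CPM (-2.26, SE 0.55, edgeR adjusted p = 0.0259). None of these overlapped between treatments, as the rule for naming by size required. ATJRG21, TRX8 and OXI1 each lost the call in the other deposited matrix, and in 3, 4 and 4 of the 6 fits that left out 1 library. AT4G12490, a lipid-transfer-like protein of the AZI1 family, had 12.6, 14.4 and 11.4 CPM against 62.6, 82.2 and 44.0 CPM. The others named by size were the ubiquitin ligase PUB21 (-2.67), the bifunctional nuclease ENDO2 (-2.20), AT4G20970 (-2.53), AT4G22470 (-2.45), AT5G24640 (-2.34), AT2G32020 (-2.19) and AT1G57630 (-2.17). ENDO2 had -0.95 in the other deposited matrix, where it lost its call, as it did with only the 6 libraries compared, without estradiol replicate 1 and without DMSO replicate 2. AT2G32280 and AT5G35575 were at 0 in all 3 estradiol libraries and under 0.5 CPM in each DMSO library, and no fold is given for them.

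Among transcription factors, 4 of 58 WRKY genes (WRKY6, WRKY15, WRKY28 and WRKY48) and 2 of 52 NAC genes (NAC081 and NAC102) were lower, where 0.852% of all genes were. WRKY genes had a median of -0.31 with 39 negative values, and NAC genes a median of -0.003 with 26. WRKY6, a regulator of senescence and phosphate transport, had 5.66, 6.90 and 4.05 CPM with estradiol against 13.5, 16.5 and 9.42 CPM with DMSO (-1.24, SE 0.30, edgeR adjusted p = 0.0215). ZAT10, a zinc-finger repressor of stress genes, had 3.61, 2.90 and 3.06 CPM against 8.56, 8.35 and 7.14 CPM (-1.33, SE 0.32, edgeR adjusted p = 0.0229). It was the 1 called gene of 14 on a list of rapid stress, touch and pattern genes, of which 13 had a negative value and the median was -0.56. LUX, a component of the evening complex of the circadian clock, had 1.93, 3.51 and 2.5 CPM against 5.54, 4.76 and 5.29 CPM (-0.95, SE 0.18, edgeR adjusted p = 0.00200). Each of these factors was lower in all 3 estradiol libraries. LUX was the 1 called gene of 17 clock genes, whose median was -0.03, and it passed the threshold under every alternative run.

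Heat shock genes leaned the same way with no call. In a list of 19 heat shock and chaperone genes the median log2 fold change was -1.64 and 18 values were negative. The edgeR test called 0 of them, with 14 lower at an unadjusted p under 0.05, and DESeq2 called 2. Of all 21241 genes tested, 10002 had a negative value, 1503 were lower at that unadjusted p, and DESeq2 called 295 lower. HSP81-1, a cytosolic Hsp90, had 68.5, 76.2 and 25.4 CPM with estradiol against 245, 124 and 167 CPM with DMSO (-1.66, SE 0.52, edgeR adjusted p = 0.114). MED37C, an Hsp70, had 101, 114 and 63.5 CPM against 340, 199 and 204 CPM (-1.42, SE 0.49, edgeR adjusted p = 0.164). The groups did not overlap in these 2 genes, and DMSO replicate 1 was far above the other libraries. HSP90-2, another cytosolic Hsp90 outside that list, did fall (-0.65).

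**Figure D3:**
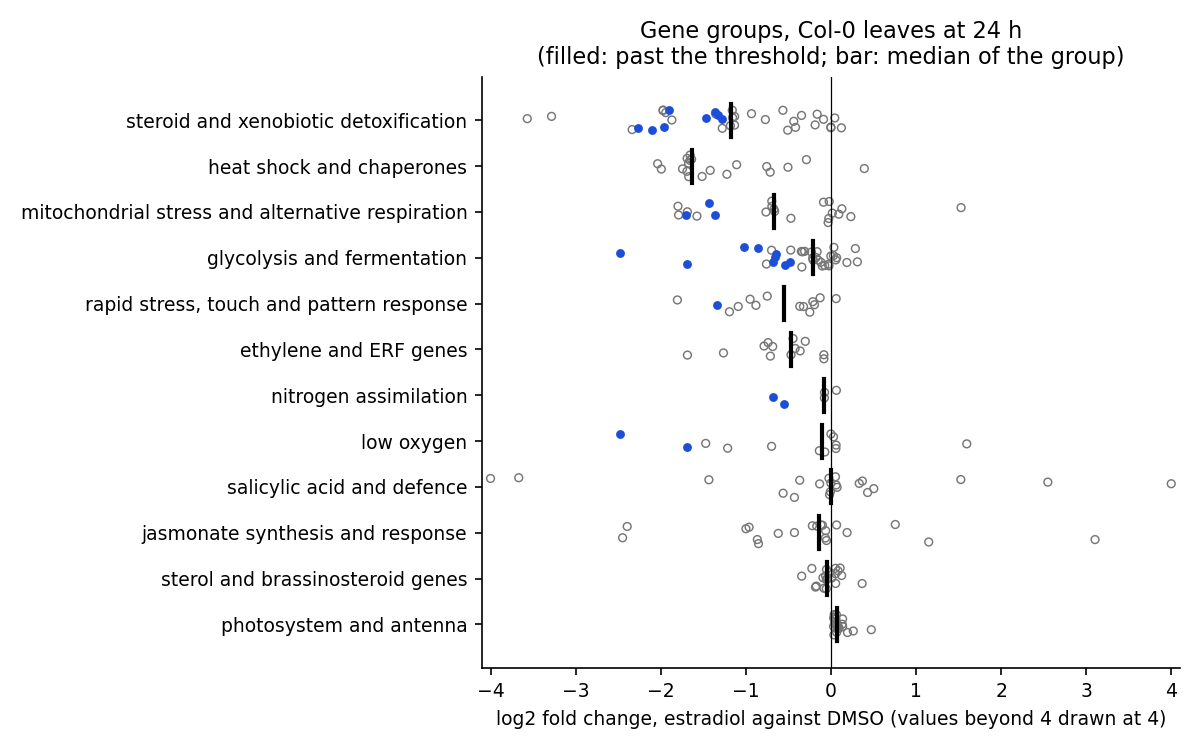
Log2 fold change in Col-0 at 24 h of the genes of 12 lists, with filled points for genes past the threshold and a bar at each list's median. Detoxification and heat shock genes lie mostly below 0 and photosystem genes all lie slightly above it, while sterol and brassinosteroid genes are centred near 0.

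All 13 ethylene and ERF genes had a negative log2 fold change, with a median of -0.47, where 10002 of all 21241 genes tested had a negative value. The edgeR test called 0 of the 13, with 3 lower at an unadjusted p under 0.05 and 1 called by DESeq2. Sugar starvation genes (9 genes, median -0.36) had 0 called by edgeR, 2 lower at an unadjusted p under 0.05 and 1 called by DESeq2. Auxin response genes (19 genes, median 0.36) had 0 called by either tool and 4 higher at an unadjusted p under 0.05, and phosphate starvation genes (11 genes, median -0.32) had 0 by all 3 counts. All 21 photosystem and antenna genes had a positive log2 fold change, with a median of 0.07. The edgeR test called 0 of them, with 4 higher at an unadjusted p under 0.05, and DESeq2 called 1. RBCS-1A, a Rubisco small subunit, stood at 15904, 16258 and 15927 CPM with estradiol and at 13835, 15055 and 14809 CPM with DMSO (0.14, edgeR adjusted p = 0.304). Lists of sterol and brassinosteroid genes (21 genes, median -0.04) and of salicylic acid and defence (21 genes, median 0) had 0 genes called by either tool, with 1 and 5 genes at an unadjusted p under 0.05. CYP90A1, an enzyme of brassinosteroid synthesis, had 215, 252 and 220 CPM with estradiol against 247, 211 and 257 CPM with DMSO (-0.06, SE 0.09), and the groups overlapped. CALS9 and CALS2, callose synthases, had log2 fold changes of -0.01 each. Over all 22 lists, 15 of 376 genes tested were lower and 0 were higher, where 0.852% and 0.132% of all genes were. At an unadjusted p under 0.05, 73 of the 376 were lower and 20 higher, and DESeq2 called 28 lower and 1 higher. Of all 21241 genes tested, 1503 were lower and 1083 higher at that unadjusted p, and DESeq2 called 295 lower and 61 higher.

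Higher genes were fewer and changed less. AT2G25510, which encodes a small protein of unassigned role, had 480.5, 512 and 569 CPM with estradiol against 325, 304 and 295 CPM with DMSO (log2 fold change 0.76, SE 0.15, edgeR adjusted p = 0.00418). ECS1, linked to bacterial disease resistance, had 963, 1008 and 1072 CPM against 731, 734 and 693 CPM (0.50, SE 0.13, edgeR adjusted p = 0.0385). BLH10, a homeodomain factor, had 81.5, 92.0 and 90.2 CPM against 56.5, 57.3 and 52.5 CPM (0.66, SE 0.14, edgeR adjusted p = 0.00561). All 3 genes were higher in each estradiol library, as the rule for naming by size required. ECS1 lost its call whichever library was left out, while BLH10 kept it in those fits and lost it in the other deposited matrix. AT5G10760, an aspartic protease-like protein of systemic immunity, had 10.6, 16.7 and 17.0 CPM against 6.01, 6.30 and 5.88 CPM (1.29, SE 0.32, edgeR adjusted p = 0.0323).

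Some higher genes stood out by how their libraries spread, and those below were chosen after their values were seen. PCC1, a defence gene that responds to pathogens and follows the clock, had 12.3, 2.13 and 19.9 CPM with estradiol against 2.79, 0.683 and 0.593 CPM with DMSO (3.03, SE 0.73, edgeR adjusted p = 0.0218). AT3G22235 lies close to it on chromosome 3, both on the minus strand, at 7854419 to 7855814 against 7845823 to 7846833 (TAIR10.1). It had 28.0, 6.74 and 34.1 CPM against 7.03, 3.54 and 3.14 CPM (2.31, edgeR adjusted p = 0.0132). In both genes estradiol replicate 2 lay within the DMSO range and the other 2 estradiol libraries were above it. Genes of chloroplast proteins were among the smaller rises, including NIFU2, an iron-sulfur cluster scaffold (0.19) and ABCI6, a subunit of the cluster assembly complex (0.22). AT4G34090 (0.54, SE 0.10, edgeR adjusted p = 0.00144) had the opposite sign in the other deposited matrix, at -0.12.

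Circadian clock genes set the 24 h libraries apart from the 48 and 72 h ones, although the labelled times are whole days apart. CCA1, which peaks near dawn, had a mean of 189.9 CPM after DMSO and 215 CPM after estradiol at 24 h. At 48 h it had 14.7 CPM after DMSO and 12.4 CPM after estradiol, and at 72 h 2.31 and 2.30 CPM in that order. APRR1, also known as TOC1, peaks in the evening and had 11.7 and 10.1 CPM at 24 h, again with DMSO first. It stood at 229 and 251 CPM at 48 h, and at 349 and 361 CPM at 72 h. CCA1 in the 24 h libraries ran from 119 to 166 CPM in icals3m and from 158 to 203 CPM in PD-plug, against 185 to 228 CPM in Col-0, so all icals3m libraries were below those of Col-0. Time after painting and the stage of the clock at collection therefore cannot be told apart in comparisons across times.

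Values of the 181 lower genes were next read in comparisons that share no library with Col-0 at 24 h. At 12 h 161 of them had a negative log2 fold change, 141 were called lower (16.7% of all genes were) and 7 higher, with a median of -1.30. At 48 h 163 were negative, 86 were called lower (4.19% of all genes) and 1 higher, with a median of -0.56. At 72 h 117 were negative and 0 were called, with 8 lower and 5 higher at an unadjusted p under 0.05 and 0 called by DESeq2, and the median was -0.07. Of all genes, 0.0141% were called at 72 h, all higher. Over all genes tested, negative values made up 43.2%, 46% and 49.9% at 12, 48 and 72 h. Lower genes called lower at both 12 and 48 h numbered 80.

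The effect itself was then compared between times, with the selection of genes at 24 h entering these values. Against 12 h, 78 of the 181 lower genes differed past the threshold (19.3% of all genes did), 50 with a less negative value at 24 h than at 12 h and 28 with a more negative one. Against 48 h, 7 differed (0.08% of all genes), among them LUX and PBL1, a receptor-like cytoplasmic kinase, and against 72 h, 12 differed (0.0989% of all genes), among them PBL1, ALAAT2 and the peroxisomal acyl-CoA oxidase ACX2. All of these had more negative values at 24 h. Over all genes, the count of 17 against 48 h ran from 2 to 228 when libraries were left out in turn. It was 2 without Col-0 24 h DMSO replicate 1 or 3 and 228 without Col-0 48 h DMSO replicate 2. That of 21 against 72 h was 5 without Col-0 72 h DMSO replicate 1 and 114 without replicate 3 of that group. SOT12 fell by 2.95 at 12 h, 1.46 at 24 h and 1.12 at 48 h, and its 72 h value was -0.24. ABCB11 had log2 fold changes of -3.51, -2.21 and -2.17 at 12, 24 and 48 h.

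**Figure D4:**
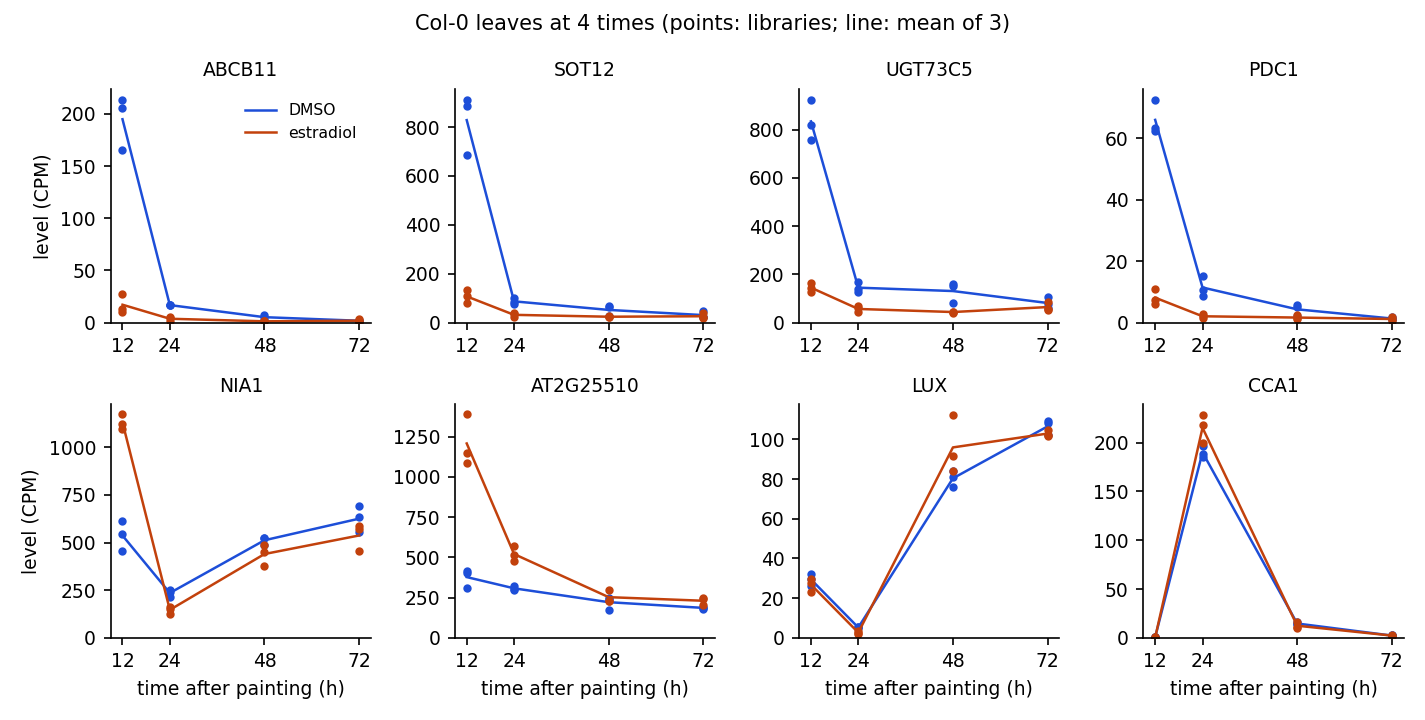
Mean level in CPM (linear axis) of 8 genes in Col-0 at 12, 24, 48 and 72 h after estradiol or DMSO, with points for the 3 libraries of each group. ABCB11, SOT12 and PDC1 with DMSO drop from 12 to 72 h towards the estradiol level, NIA1 changes order between 12 and 24 h, and LUX and CCA1 show the different clock stage of the 24 h libraries.

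Levels of the 181 lower genes were higher at 12 h than at 24 h after either treatment, in 160 of them with DMSO and in 164 with estradiol, where 10801 and 10832 of the 21241 genes tested were. Their median level with DMSO was 6.45, 4.58, 4.51 and 4.27 log2 CPM at 12, 24, 48 and 72 h, and with estradiol 4.99, 3.59, 3.83 and 4.31. From 24 to 72 h the median difference per gene was -0.26 with DMSO, where 114 of 181 were lower at 72 h, and 0.55 with estradiol, where 130 were higher. Of all 21241 genes tested, 10367 were lower at 72 h with DMSO and 11024 were higher with estradiol. The 181 genes were chosen by their values in the 24 h libraries, and that choice enters these differences between times. Mean ABCB11 levels with DMSO were 195, 16.7, 5.10 and 1.67 CPM at the 4 times and with estradiol 17.1, 3.59, 1.13 and 1.77 CPM. SOT12 had 828 and 86.6 CPM with DMSO at 12 and 24 h, and 107 and 31.4 CPM with estradiol. UGT73C5 had 834, 144, 130.5 and 80.9 CPM with DMSO and 145, 56.2, 43.4 and 64.1 CPM with estradiol. No untreated or unpainted leaves were analysed here, so these data do not say which treatment departs from an unpainted leaf.

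Nitrate reductase showed the reverse order at 12 h. NIA1 had a log2 fold change of 1.07 at 12 h and of -0.68 at 24 h, and the difference between them was -1.75 (edgeR adjusted p = 4.2e-07). Mean NIA1 was 1130.3 CPM after estradiol and 537 CPM after DMSO at 12 h, but 147 after estradiol and 235 after DMSO at 24 h. NIA2 had 0.38 at 12 h and -0.55 at 24 h, a difference of -0.92 (edgeR adjusted p = 0.000854). LUX differed from both neighbouring times, by -0.82 against 12 h and by -1.21 against 48 h (edgeR adjusted p = 0.00695 and 0.0102). Of the 28 higher genes, 24 were positive at 12 h, where 55.9% of all genes were, and 18 were called higher (21.9% of all genes were), with a median of 0.42. At 48 h 14 were positive, as were 52.9% of all genes, and 0 were called by edgeR or DESeq2 (3 higher and 1 lower at an unadjusted p under 0.05), where 2.48% of all genes were called higher.

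**Figure D5:**
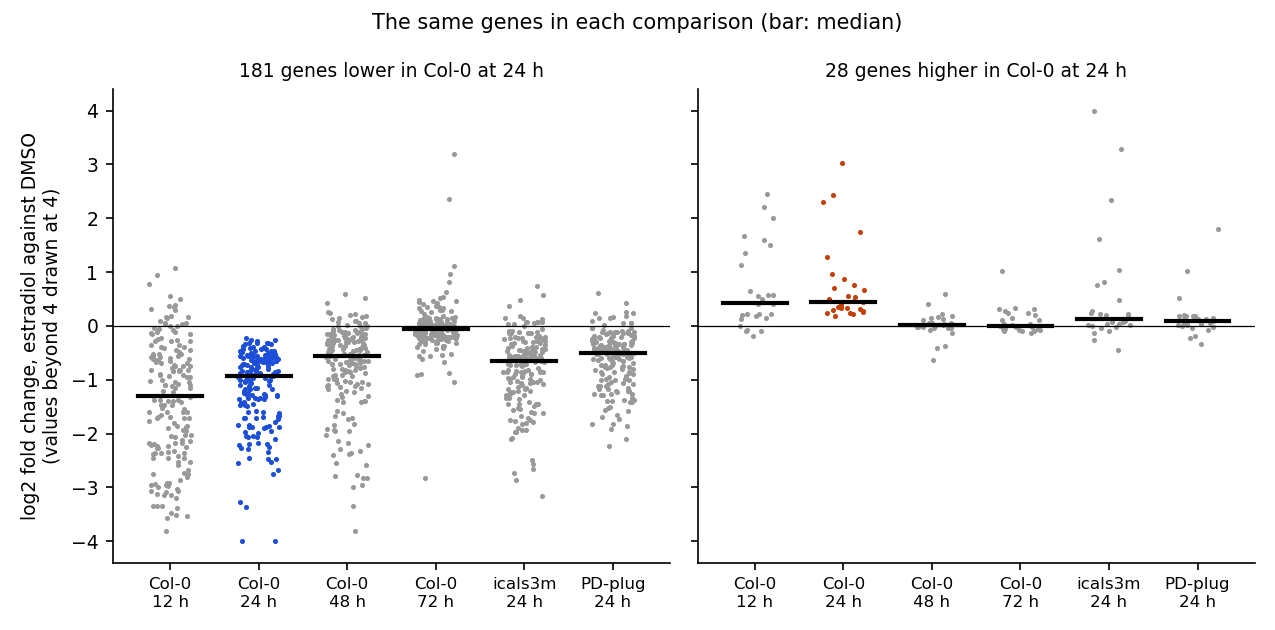
Log2 fold changes of the 181 lower genes (blue) and 28 higher genes (orange) of Col-0 at 24 h in that comparison and in 5 that share no library with it, with a bar at each median. Medians of the lower genes are -1.30 in Col-0 at 12 h, -0.56 at 48 h, -0.07 at 72 h, -0.66 in icals3m and -0.51 in PD-plug at 24 h.

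The same genes were read in the lines with inducible constructs at 24 h, where the treatment also induces the construct. In icals3m 164 of the 181 lower genes were negative and 93 were called lower (3.73% of all genes were), with a median of -0.66. In PD-plug 167 were negative and 27 were called lower (0.334% of all genes), with a median of -0.51. Negative values made up 48.2% of all genes tested in icals3m and 50.4% in PD-plug. Lower genes called lower in either line numbered 102, in both lines 18, and 139 of the 181 were negative in both lines and in Col-0 at 12 and 48 h. UGT73C5 had log2 fold changes of -1.29 in icals3m and -1.27 in PD-plug, beside -1.36 in Col-0. Of the 28 higher genes, 11 were called higher in icals3m (2.74% of all genes were) and 1 in PD-plug (0.155%), and that 1 was AT5G10760.

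Differences between each line's effect and that of Col-0 at 24 h use the Col-0 libraries that chose the genes. For icals3m against Col-0, 4 of the 209 genes passed the threshold, among 55 of all genes tested (0.259%). They were AT1G72860 (-1.20 in Col-0 and 0.74 in icals3m), CYP71B3 (-0.54 and 0.47), PBL1 (-1.30 and -0.31) and the inositol phosphate synthase IPS1 (0.40 and -0.45). For PD-plug, AT4G34090 passed (0.033% of all genes did), with -0.19 in PD-plug and 0.54 in Col-0. When libraries were left out in turn, the count of 55 ran from 14, without icals3m estradiol replicate 3, to 81, and the count of 7 in PD-plug ran from 0, without DMSO replicate 1 of Col-0 or of PD-plug, to 10. PCC1 had a log2 fold change of 6.04 in icals3m and of 0.09 in PD-plug. These contrasts tested genes for a difference, and a gene that misses the threshold is not shown to respond alike in both genotypes.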

How the data were processed

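The authors deposited 2 whole-series matrices of expected counts per gene, and the one named for the study was used, with 33602 genes. Its deposited values are estimated counts that were already whole, so rounding changed nothing, and the value 4 is in excess (40727 cells, against 8585 for 3 and 10399 for 5), which leaves it unclear whether a count is 1 sequenced fragment. Per the submitters' processing notes, FastQC 0.11.8, Trim Galore 0.5.0, cutadapt 1.7, HISAT2 2.1.0, STAR 2.5, SAMtools 1.4.1 and StringTie 1.3.3 were used with TAIR10, and the role of each for this matrix, including its use of strand and of shared reads, is not given in the sources used here. Counts of tandem or overlapping genes are uncertain for that reason. Gene symbols come from the other matrix.

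Counts of all 72 libraries were fitted in 1 model of 24 group means with edgeR 4.0.16 (R 4.3.3, limma 3.58.1): filterByExpr with a minimum count of 10 and a minimum total of 15, TMM scaling, glmQLFit with trended dispersion and robust estimation, and glmQLFTest, with 48 residual degrees of freedom. P-values were adjusted by Benjamini-Hochberg over 21241 genes with a threshold of 0.05, and a standard error is the size of the log2 fold change divided by the root of F. CPM values use TMM-scaled totals, and log2 CPM a prior count of 2. A floor of 3 counts is at most 0.0794 CPM in the 6 libraries by totals before TMM scaling, and covers counting error only. With TMM factors of 0.861 to 0.909 it is somewhat higher on the CPM scale used here. The code was tested on simulated counts. Labels call the replicates biological, and which plants each came from is not stated beyond the pooling given above. P-values therefore rest on the spread between such samples. That spread was estimated within all 24 groups, with information shared across genes, and not from the 6 compared libraries alone.

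The comparison, the gene lists and the rule for naming genes were chosen with earlier results of these data known, and 2 lists and all families after values were seen. Named by rule were, among called genes with a mean of at least 1 CPM and no overlap between treatments, the 12 highest and 16 lowest, then up to 4 called genes of each list by smallest p, or up to 2 of the most abundant where none was called. Other genes named were chosen after their values were seen. Alternatives were RLE factors, DESeq2 1.42.0, no filter, the other matrix (called the STAR matrix), counts divided by 4, a replicate block, only the libraries compared, and leaving out each library. Promoter sequences come from the RefSeq TAIR10.1 genome, which gave 20987 of the tested genes a 500-base window.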

Additional observations from a re-analysis of the deposited data

Results flagged for a closer look

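For 17 values of the genes named by rule, the effect of estradiol in Col-0 at 24 h differed from the effect in another comparison by a test of the difference itself (edgeR quasi-likelihood test, Benjamini-Hochberg adjusted). Values are log2 differences, and the choice of genes at 24 h enters them. Clock stage and time cannot be told apart in those between times.

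Detoxification genes had a less negative effect at 24 h than at 12 h, by 1.17 in UGT73C5 (edgeR adjusted p = 0.0210), 1.63 in UGT73C6 (edgeR adjusted p = 0.00205) and 1.49 in SOT12 (edgeR adjusted p = 0.0146). WRKY6 also had a less negative effect, by 1.22 (edgeR adjusted p = 0.0271). The effect was more negative at 24 h than at 12 h in NIA1, by -1.75 (edgeR adjusted p = 4.2e-07), in NIA2, by -0.92 (edgeR adjusted p = 0.000854), in ENDO2, by -2.05 (edgeR adjusted p = 0.0178), and in LUX, by -0.82 (edgeR adjusted p = 0.00695).

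Among the higher genes, the rise was smaller at 24 h than at 12 h in AT2G25510, by -0.92 (edgeR adjusted p = 0.00115), in ECS1, by -0.87 (edgeR adjusted p = 0.000399), and in AT1G24147, by -0.80 (edgeR adjusted p = 0.0252). It was larger at 24 h in AT5G56747, by 1.03 (edgeR adjusted p = 0.0230), in ECT11, by 0.66 (edgeR adjusted p = 0.00360), and in AT4G34090, by 0.38 (edgeR adjusted p = 0.0393). Against 48 h, AT2G31560 differed by 0.82 (edgeR adjusted p = 0.0338) and LUX by -1.21 (edgeR adjusted p = 0.0102). In AT4G34090 the effect in PD-plug was below that in Col-0 by -0.72 (edgeR adjusted p = 0.0123).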

How the results depend on the processing

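The 209 genes called in Col-0 at 24 h were 202 with RLE factors, 176 with no filter and 201 with counts divided by 4, but 103 in the STAR matrix (81 shared), 440 with only the 6 libraries compared and 356 with DESeq2 (207 shared). To see whether replicate numbers pair samples, each treatment's mean log2 CPM was first removed from every gene. The remaining deviations of same-numbered estradiol and DMSO samples correlated by -0.02, -0.01 and 0.01. Not every sample's deviations correlated best with its own number, so the numbers were not taken to pair samples. The replicate block gave 151 calls (126 shared). Of the 209, 27 kept the call whichever library was left out, 55 under the 7 other settings, and 16 under all. AT4G34090 turned to -0.12 in the STAR matrix.

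Other counts moved as follows, and the cause was not tested. The STAR matrix gave 4723, 501, 525 and 47 calls in Col-0 at 12 and 48 h, icals3m and PD-plug, and 1663, 18 and 4 for the 24 h effect against 12 h and for icals3m and PD-plug against Col-0. DESeq2 gave 24 at 72 h, 162 in PD-plug, and 123, 88, 126 and 23 for the contrasts with 48 h, 72 h, icals3m and PD-plug. The replicate block gave 19 at 72 h, and 81, 83 and 3 for the contrasts with 72 h, icals3m and PD-plug. Only the libraries compared gave 238 at 48 h, 1 at 72 h, 46 in PD-plug, and 12 and 139 for the contrasts with 72 h and icals3m. Counts divided by 4 gave 1 at 72 h and 4 for the contrast with 72 h, and no filter gave 11 for that with 48 h.

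Leaving out each library gave 43 to 217 calls in Col-0 at 24 h, 6707 to 7753 at 12 h, 309 to 2474 at 48 h, 0 to 11 at 72 h, 477 to 1047 in icals3m and 33 to 76 in PD-plug. For the contrasts it gave 2943 to 4198 with 12 h, 2 to 228 with 48 h, 5 to 114 with 72 h, 14 to 81 for icals3m and 0 to 10 for PD-plug.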
